A study of Mus musculus with 12 samples.

Results

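Slit3 and Plxnb3 were followed across the 12 RNA-seq libraries of the series, as 2 of the 15928 genes of the count table. Both encode proteins of axon guidance. The deposited table carries no gene names, and a gene was named only where its mean normalized count matched a single named mean in the study's own differential expression table, which paired 1349 genes. That named table was ranked on the contrast between Tg and Wt mice, and the pair was picked with that contrast known. Their Tg minus Wt values are therefore given as a description, without a test. Tests were kept for sex, library batch, the difference of the genotype effect between sexes, marker gene scores and relations within Tg mice.

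The tissue was a dissection of brain with dorsal hippocampus and cortex processed together, from 5 wild type (Wt) and 7 Tg2576 (Tg) mice, male and female, labelled 11 months old. Tg2576 mice express human APP with the Swedish double mutation from a transgene under a prion protein gene promoter, and no other allele or treatment is labelled in either group. The study's methods give a wider age range than the labels. Libraries were made in 2 batches, the first with 3 Wt and 5 Tg mice. In batch 2 both Wt mice were female and both Tg mice male, 2 of each, so there genotype and sex cannot be told apart. App was at 1214 to 1496 CPM (reads of a gene relative to all counted reads, with TMM factors) in Wt mice and at 2991 to 5727 CPM in Tg mice, so all libraries matched their genotype labels. Xist, the RNA of the inactive X chromosome, was at 149.5 to 233.4 CPM in the 7 mice labelled female and at most 0.0563 CPM in 4 of the 5 labelled male. Wt mouse 41, labelled male, had 198.9 CPM of Xist, against its label. The genotype, sex and interaction values of Slit3 and Plxnb3 are given with and without it. Other results with Wt mice, such as the batch differences and the batch 1 fits, include it unless stated. Neuron markers were present in every library, with a summed level of 2842 to 5222 CPM for the 4 paired markers. These were not chosen as markers of a region. Of the listed region markers, Prkcd (thalamus) was at 1.32 to 4.88 CPM per kb of exon in Wt and 1.56 to 22.5 in Tg mice. Prox1 (dentate gyrus) was at 1.19 to 1.90 and 1.39 to 2.76, and Etv1 (deep cortex) at 4.21 to 6.07 and 3.19 to 5.49. Whether the dissection differed between mice was not tested.

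Slit proteins are large secreted ligands that bind Robo receptors and repel growing axons and migrating cells. Plexins are transmembrane receptors for semaphorins, and their cytoplasmic part acts on small GTPases to change the cytoskeleton. Plexin-B3, encoded by Plxnb3, is a receptor for semaphorin 5A and is known in brain as a gene of the oligodendrocyte lineage.

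Slit3 (ENSMUSG00000056427.10) lies on the plus strand of chromosome 11 of GRCm38, at chr11:35121224-35708507. Its 4 annotated transcripts share a span of 587.3 kb, of which 6.07 kb are exons. Plxnb3 (ENSMUSG00000031385.14) lies on the plus strand of the X chromosome, at chrX:73757090-73772514. It has 5 annotated transcripts and 6.49 kb of exons in a span of 15.4 kb. The exon lengths of the genes were thus alike, while the spans were not. No other annotated gene overlapped Plxnb3. Slit3 held 4 small annotated genes, Gm26070, Gm12123, Gm12122 and Mir218-2, none of which overlapped its exons.

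The RefSeq windows around the starts of both genes (GRCm38.p6, plus strand, 250 bases before to 50 after the start) are shown because the 2 genes begin in windows of different base composition. For Slit3 the RefSeq start lies downstream of the start given above, so most of its window is inside the annotated gene. In the window of Slit3, chr11:35121206-35121505, capitals mark each CG dinucleotide. In the window of Plxnb3, chrX:73756853-73757152, capitals mark the 1 match to ACAAAG, the core letters bound by SOX factors, which include Sox10 of oligodendrocytes.
Slit3: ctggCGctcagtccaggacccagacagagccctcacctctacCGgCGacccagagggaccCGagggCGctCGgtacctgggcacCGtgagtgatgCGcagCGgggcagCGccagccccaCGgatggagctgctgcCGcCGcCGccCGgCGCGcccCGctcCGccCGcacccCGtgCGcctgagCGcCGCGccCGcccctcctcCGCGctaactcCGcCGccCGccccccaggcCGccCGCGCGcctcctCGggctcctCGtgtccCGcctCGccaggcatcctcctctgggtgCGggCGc
Plxnb3: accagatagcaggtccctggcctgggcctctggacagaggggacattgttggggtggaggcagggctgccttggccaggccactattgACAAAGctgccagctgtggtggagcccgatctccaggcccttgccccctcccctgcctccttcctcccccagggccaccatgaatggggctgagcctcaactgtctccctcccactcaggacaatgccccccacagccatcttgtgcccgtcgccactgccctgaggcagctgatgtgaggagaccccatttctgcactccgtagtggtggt
The Slit3 window held 41 CG dinucleotides and 78.3% G or C. Of 32544 RefSeq windows of this length, 3.49% held at least as many, and the median was 7. The Plxnb3 window held 4 CG dinucleotides and 63.7% G or C, and 69% of windows held at least as many. ACAAAG, searched on both strands (CTTTGT on the other), was not in the Slit3 window and is in 18.7% of all windows. A match describes the letters and was not tested as a site. DNA methylation was not analysed here.

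Mir218-2 is the known microRNA gene inside an intron of Slit3. Its 2 mature arms, with the seed (bases 2 to 8) in capitals, are at chr11:35616840-35616860 and chr11:35616882-35616903, and their levels were not analysed here.
mmu-miR-218-5p: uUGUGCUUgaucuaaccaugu
mmu-miR-218-2-3p: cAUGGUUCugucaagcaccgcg

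Slit3 was at 65.9, 76.0, 65.4, 56.9 and 83.1 CPM in Wt mice 12, 41, 79, 80 and 95. In the 7 Tg mice it ranged from 41.3 to 59.3 CPM, with a median of 51.8. Of the 7 Tg mice, 5 were below every Wt mouse, and mice 92 and 93 were above the lowest Wt mouse, number 80. In all, 1.87% of genes had at least 5 Tg mice below every Wt mouse, and since this contrast chose the gene nothing is read from that share. The mean was 69.5 ± 10.2 CPM (SD, n = 5) in Wt and 52.1 ± 5.94 CPM (SD, n = 7) in Tg mice, which is 74.9% of the Wt mean. With sex and batch in the fit the log2 fold change was -0.44 (SE 0.089), and it was -0.46 (SE 0.10) without mouse 41.

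Within batch 1 the 3 Wt mice had 65.9 to 83.1 CPM of Slit3 and the 5 Tg mice 50.8 to 59.3 CPM. Within batch 2 the 2 Wt mice had 56.9 and 65.4 CPM and the 2 Tg mice 41.3 and 50.7 CPM. The groups therefore did not overlap in either batch, an arrangement shared by 0.232% of genes. Since this contrast chose the gene, nothing is read from that share either, and in batch 2 the Wt mice were female and the Tg mice male. The overlap in the pooled mice was between batch 1 Tg mice and a batch 2 Wt mouse.

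Plxnb3 was at 14.8, 6.22, 13.6, 12.2 and 8.89 CPM in Wt mice 12, 41, 79, 80 and 95. In the 7 Tg mice it ranged from 10.7 to 29.7 CPM, with a median of 22.5. Of these, 5 were above every Wt mouse, while Tg mice 67 and 93, at 13.3 and 10.7 CPM, lay among the Wt values. In all, 3.19% of genes had at least 5 Tg mice above every Wt mouse, and nothing is read from that share for the same reason. The mean was 11.1 ± 3.52 CPM (SD, n = 5) in Wt and 20.6 ± 6.82 CPM (SD, n = 7) in Tg mice, which is 185.4% of the Wt mean. The log2 fold change of Plxnb3 was 0.98 (SE 0.23) and was 0.86 (SE 0.26) without mouse 41, whose Plxnb3 level was the lowest of the 12. In a bulk dissection, fewer cells of a type and less RNA per cell cannot be told apart, and the same holds for more cells and more RNA.

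Within batch 1 Plxnb3 was at 6.22 to 14.8 CPM in Wt and 10.7 to 29.7 CPM in Tg mice, so that the groups overlapped. Within batch 2 it was at 12.2 and 13.6 CPM in Wt and at 22.5 and 26.1 CPM in Tg mice, with no overlap. Of all genes, 22% had both Tg mice above both Wt mice in that batch, and nothing is read from that share either. In a fit of batch 1 alone, with sex as a covariate, the log2 fold change of Plxnb3 was 0.63 (SE 0.32), against 0.98 in both batches, and that of Slit3 was -0.42 (SE 0.13).

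**Figure D1:**
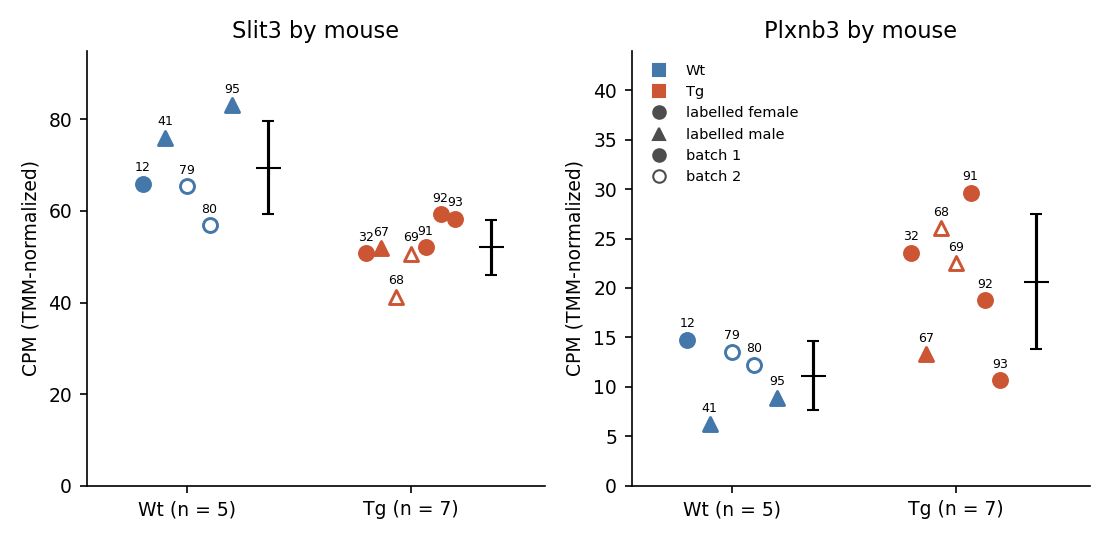
Slit3 (left) and Plxnb3 (right) in TMM-normalized CPM for each mouse, with mouse numbers, marker shape for the labelled sex and open markers for batch 2; crosses with bars are the mean ± SD of each group. The Tg mice have 41.3 to 59.3 CPM of Slit3 against 56.9 to 83.1 in Wt, and 10.7 to 29.7 CPM of Plxnb3 against 6.22 to 14.8 in Wt.

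The spread between mice was larger than counting error for both genes. Slit3 had 818 to 1477 reads per mouse and Plxnb3 112 to 548, for a coefficient of variation from counting of at most 3.50% and 9.45%. The observed coefficient of variation of Slit3 was 14.7% in Wt and 11.4% in Tg mice, and that of Plxnb3 was 31.6% and 33.0%. By mean CPM, Slit3 was above 79.8% of all genes and Plxnb3 above 49.1%.

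Sex and batch were tested with edgeR's quasi-likelihood test over all 15928 genes, with Benjamini-Hochberg adjustment. Slit3 was at 50.8 to 65.9 CPM in the 7 labelled females and 41.3 to 83.1 CPM in the 5 labelled males, with a male minus female log2 difference of 0.05 (SE 0.090, edgeR adjusted p = 0.82). X-linked Plxnb3 was at 10.7 to 29.7 CPM in females and 6.22 to 26.1 CPM in males, with a log2 difference of -0.43 (SE 0.23, edgeR adjusted p = 0.494). Neither difference passed the threshold of 0.1, which 0% of genes passed for sex. With mouse 41 coded male Xist did not pass either, so not passing here does not show that a gene is alike in the sexes. Without mouse 41, whose sex label is in doubt, the sex difference was 0.06 for Slit3 (edgeR adjusted p = 0.95) and -0.30 for Plxnb3 (edgeR adjusted p = 0.922). In batch 1 alone, with mouse 41 among the males, that of Plxnb3 was -0.78 (SE 0.32, edgeR adjusted p = 0.776). The batch 2 minus batch 1 difference was -0.27 for Slit3 (SE 0.095) and 0.46 for Plxnb3 (SE 0.24), both with an edgeR adjusted p of 0.636. No gene (0%) passed for batch, where 1217 genes (7.64%) had an unadjusted p under 0.05 and DESeq2 called 24 (0.151%). For sex these counts were 1801 (11.3%) and 175 (1.1%).

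The genotype effect was then compared between sexes. Slit3 was at 56.9 to 65.9 CPM in the 3 Wt females and 50.8 to 59.3 CPM in the 4 Tg females, which overlapped. It was at 76.0 (mouse 41) and 83.1 CPM in the 2 Wt mice labelled male and at 41.3 to 51.8 CPM in the 3 Tg males, which did not. Plxnb3 did not overlap there either, at 6.22 (mouse 41) and 8.89 CPM against 13.3 to 26.1 CPM. Both Wt mice labelled male were in batch 1, while Tg males 68 and 69 were in batch 2. All Tg females were in batch 1, while Wt females 79 and 80 were in batch 2. Within a sex these levels thus differ by batch as well as by genotype. The share of all genes without overlap in the labelled males was not counted, and nothing is read from it in so few mice. For Slit3 the difference of the effect, males minus females, was -0.36 (SE 0.25) on the log2 scale and did not pass (edgeR adjusted p = 0.992). For Plxnb3 the difference was 0.40 (SE 0.65, edgeR adjusted p = 0.992), -0.73 without Wt mouse 12 and 1.38 without Tg mouse 67. No gene (0%) passed this interaction test, 567 (3.56%) had an unadjusted p under 0.05, and DESeq2 called 17 (0.107%). Without mouse 41 the difference was -0.43 for Slit3 and 0.16 for Plxnb3. With so wide an error the data do not place the sexes' effects on Plxnb3 in an order.

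Because Plxnb3 is a gene of oligodendrocytes, both genes were set beside marker genes of the cell types in the dissection. All 13 paired oligodendrocyte markers, of 15 listed, had a higher mean in Tg mice (median log2 fold change 0.95). Their summed level was 1130 to 3745 CPM in Wt and 1549 to 6272 CPM in Tg mice. All 14 markers of choroid plexus, the epithelium that makes cerebrospinal fluid, were also higher (median log2 fold change 2.12), with sums of 105 to 592 CPM in Wt and 101 to 2343 CPM in Tg mice. Of the other lists, 2 of 6 oligodendrocyte precursor markers, 4 of 7 astrocyte, 3 of 10 microglia, 4 of 8 neuron and 1 of 9 vascular and meningeal markers could be paired. The 3 microglial markers were higher in Tg (median log2 fold change 0.29), and the astrocyte and the neuron markers were split with 2 higher and 2 lower each. Over all genes tested the median log2 fold change was -0.0030, and 49.3% were higher in Tg mice. The paired genes were chosen for this contrast, so these directions describe the samples.

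A score for each cell type, the mean log2 CPM of its paired markers, was then added to the fit with sex, batch and genotype, and the slope on it was tested within groups. Plxnb3 rose with the oligodendrocyte score by 0.70 log2 units per log2 unit of score (SE 0.081, edgeR adjusted p = 6.26e-04). The slope was positive at this threshold in 1.53% of all genes tested and in 11% of the paired genes, and DESeq2 called 2.89% of all genes in either direction. It stayed past the threshold with each of the 12 mice left out (0.64 to 0.74), including mouse 41 (0.69). The weakest of these calls was that without Tg mouse 93 (slope 0.64, edgeR adjusted p = 0.0632). The slope was 0.77 (SE 0.11, edgeR adjusted p = 0.0439) in batch 1 alone and 0.76 (SE 0.11, edgeR adjusted p = 0.0229) in Tg mice alone. With both scores in 1 fit it was 0.78 (SE 0.19), which no longer passed (edgeR adjusted p = 0.213). Slit3 had a slope of -0.09 (SE 0.079, edgeR adjusted p = 0.818), which did not pass.

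The same 2 genes were tested on the choroid plexus score. Plxnb3 had a slope of 0.26 (SE 0.055, edgeR adjusted p = 0.0752), where 0.697% of all genes had a positive slope past the threshold, as did 6.3% of paired genes, and DESeq2 called 1.7% in either direction. This call held in only 3 of 12 fits that left out a mouse. It was lost without any one of Wt mice 12, 41, 79 and 80 or Tg mice 32, 68, 69, 91 and 93, and the lowest slope, 0.19, was that without mouse 93 (edgeR adjusted p = 0.9998). With the oligodendrocyte score in the same fit the slope was -0.037 (SE 0.081, edgeR adjusted p = 0.9997). Slit3 had a slope of -0.0078 (SE 0.036, edgeR adjusted p = 0.9995). With both scores in 1 fit, the slope of Slit3 was -0.38 on the oligodendrocyte score (SE 0.16, edgeR adjusted p = 0.727, unadjusted 0.0403) and 0.14 on the choroid plexus score (SE 0.070, edgeR adjusted p = 0.9997), and neither passed. The 2 scores had a Pearson r of 0.936 over the 12 mice, from the same libraries.

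With the oligodendrocyte score as a covariate, the Tg minus Wt log2 fold change of Plxnb3 was 0.29 (SE 0.12), against 0.98 without it. That of Slit3 was -0.36 (SE 0.12), against -0.44. With the choroid plexus score in its place the values were 0.46 (SE 0.18) for Plxnb3 and -0.43 (SE 0.12) for Slit3. The markers of both scores were paired from a table ranked on this same contrast, and all were higher in Tg mice. These adjusted values are therefore descriptions, and the part of oligodendrocyte content in the Plxnb3 difference was not tested.

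**Figure D2:**
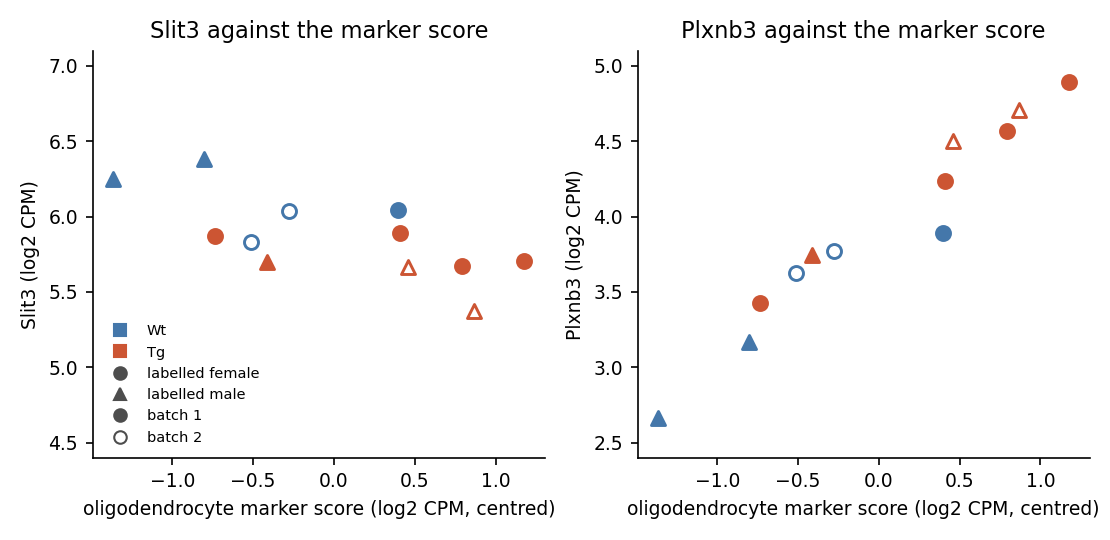
Log2 CPM of Slit3 (left) and Plxnb3 (right) against the centred oligodendrocyte marker score, 1 point per mouse, with colour for genotype, shape for labelled sex and open markers for batch 2. Plxnb3 rises along the score in both groups (slope 0.70), while Slit3 has a slope of -0.09 and Tg points that lie mostly below the Wt points.

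Within the 7 Tg mice, 7 relations were computed on log2 CPM, with exact permutation tests, two-sided, adjusted over the 7. Plxnb3 followed the oligodendrocyte score with r = 0.990 (exact permutation p = 1.98e-04, the smallest that 7 mice can give, adjusted p = 0.00139) and rho = 1.0 (exact permutation p = 3.97e-04, adjusted p = 0.00278). The order of the 7 mice was thus the same in both measures, and Tg mice 93 and 67, which lay among the Wt mice for Plxnb3, had the lowest scores. Without the 2 mice farthest from the median score r was 0.936. Plxnb3 and the choroid plexus score had r = 0.899 (exact permutation p = 0.0238, adjusted p = 0.0833) and rho = 0.714 (exact permutation p = 0.0881, adjusted p = 0.308). Without the 2 farthest mice r was 0.269, so this relation rests on those mice. With 1 Tg mouse left out it passed only without mouse 92.

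Slit3 was related to neither score within Tg mice at this threshold. Its r was -0.493 with the oligodendrocyte score (exact permutation p = 0.281, adjusted p = 0.453; rho -0.464, p = 0.302) and -0.404 without the 2 farthest mice. Its r with the choroid plexus score was -0.311 (exact permutation p = 0.524, adjusted p = 0.524; rho 0.107, p = 0.84) and 0.0911 without the 2 farthest. App, the transgene readout, had r = -0.326 with Slit3 (exact permutation p = 0.472, adjusted p = 0.524; rho -0.429, p = 0.354), and -0.0273 without the 2 farthest. App had r = -0.439 with Plxnb3 (exact permutation p = 0.323, adjusted p = 0.453; rho -0.536, p = 0.236), and -0.277 without the 2 farthest.

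Slit3 and Plxnb3 themselves had r = -0.558 within Tg mice (exact permutation p = 0.194, adjusted p = 0.453; rho -0.464, p = 0.302) and -0.567 without the 2 farthest, a relation that did not pass. Batch 1 holds 5 Tg mice and batch 2 holds 2, under the minimum of 6 mice set for a correlation, so none is given within batches.

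Across the 12 mice, with the mean of each genotype taken off, the correlation of Plxnb3 with the 13 oligodendrocyte markers ranged from 0.79 to 0.96 (median 0.92), and with the 14 choroid plexus markers from 0.82 to 0.95. Those of Slit3 with the same markers ranged from -0.63 to -0.38 and from -0.49 to -0.24. The few paired markers of other cell types spread to both sides of 0. The 4 neuron markers ranged from -0.86 to 0.47 with Plxnb3 and from -0.74 to 0.59 with Slit3, and the 4 astrocyte markers from -0.63 to 0.69 and from -0.42 to 0.63. The 3 microglial markers ranged from -0.09 to 0.55 with Plxnb3 and from -0.35 to 0.09 with Slit3. The medians over the 1348 other paired genes were 0.0043 and -0.02. All of these share the same libraries and are given as descriptions.

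Genes whose pattern was among the most like that of Plxnb3 by this measure were Gng11, a G protein gamma subunit (r = 0.96), Mal, a myelin and lymphocyte protein (0.96), Gjc3, a connexin of glia (0.96), and Cdr2 (0.95). The most opposed were Trim9, a neuronal ubiquitin ligase (-0.94), Arhgef7, a guanine nucleotide exchange factor (-0.93), Dcaf7 (-0.92), Celf4, an RNA-binding protein of neurons (-0.90), and Fam84a (-0.89). Of its 20 nearest genes, 5 were listed oligodendrocyte markers and 1 a choroid plexus marker.

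For Slit3 the nearest were Hspa12a, of the Hsp70 family (r = 0.90), Gm5454 (0.88), Ptpn14, a protein tyrosine phosphatase (0.85), Papl (0.85) and Aqp11, an aquaporin (0.82). The most opposed were Nfatc3, a calcium-regulated transcription factor (-0.84), Adamtsl3 (-0.80), Xaf1 (-0.79), Sh3bp2, an adaptor protein (-0.77), and Tlr2, a receptor of innate immunity (-0.76). Among its 20 nearest genes, 0 were on the oligodendrocyte or choroid plexus lists. The genes nearest to Slit3 and to Plxnb3 were picked from the 1348 for their correlation, so no p is given.

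Other guidance genes were taken from a list of 92 genes in 7 families, of which 18 could be paired, Slit3 and Plxnb3 included. Per kilobase of exon, Slit3 was at 11.5 ± 1.68 CPM per kb in Wt (SD, n = 5), the 9th of the 18, and at 8.58 ± 0.978 in Tg mice (SD, n = 7), the 10th. Its neighbours in the Wt order, Plxnc1 at 12.4 ± 1.79 and Sema4f at 10.9 ± 1.33 CPM per kb, did not differ from it beyond their spread. Plxnb3 was at 1.71 ± 0.542 CPM per kb in Wt, the 14th, and 3.18 ± 1.05 in Tg mice, the 13th. In Wt its lower neighbour Ntn4, at 1.5 ± 0.527 CPM per kb, lay within its spread, and Unc5b above it was at 3.43 ± 1.18. The other 3 paired plexins had means of 12.4 to 23.8 CPM per kb in Wt mice, and each was above Plxnb3 in every mouse.

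**Figure D3:**
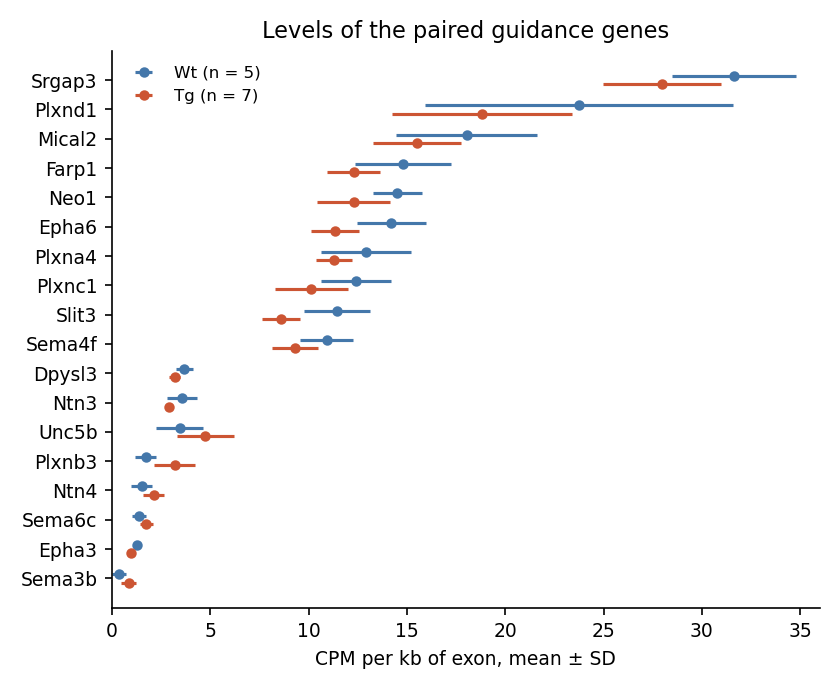
Levels of the 18 paired guidance genes in CPM per kb of annotated exon, mean ± SD, in Wt (n = 5) and Tg (n = 7) mice. Slit3 is in the middle of the order at 11.5 CPM per kb in Wt mice, and Plxnb3 is among the low genes at 1.71 CPM per kb.

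Of the 18 genes, 5 had a positive and 13 a negative Tg minus Wt log2 fold change (median -0.23), where 55.9% of paired genes were positive and 44.1% negative. The median was 0.32 over paired genes and -0.0030 over all genes. Over all genes, edgeR called 0.00628% for this contrast (App alone), DESeq2 called 0.352%, and 7.19% had an unadjusted p under 0.05 in edgeR. That last share was 81.3% among the paired genes, which the same contrast had selected, so no call is given for the 18. By role, Slit3 was the 1 paired ligand of 3 Slits. Of 7 Slit receptors and effectors only Srgap3, a GTPase-activating protein that acts downstream of Robo, could be paired, with a log2 fold change of -0.19 (SE 0.092). No Robo gene was paired, and the levels of the Slit3 receptors were not analysed here.

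Among 20 semaphorins, the ligands of plexins, 3 were paired. Sema3b, a secreted class 3 semaphorin, had as few as 6 reads in a library and a log2 fold change of 1.34 (SE 0.57), Sema6c of 0.32 (SE 0.15) and Sema4f of -0.25 (SE 0.092). Of 11 plexins and neuropilins, 4 were paired, and the other 3 plexins had negative values, with Plxna4 at -0.22 (SE 0.075), Plxnc1 at -0.30 (SE 0.14) and Plxnd1 at -0.37 (SE 0.14). The 3 paired of 14 plexin effectors, Dpysl3, Mical2 and Farp1, were at -0.22 to -0.30. Plxnb3 was thus the 1 paired plexin with a positive value. The ligand Sema5a was not among the paired genes.

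Among netrins, their receptors and repulsive guidance molecules, 4 of 15 were paired. Ntn4 (0.51, SE 0.25) and the netrin receptor Unc5b (0.49, SE 0.24) had positive log2 fold changes, and Ntn3 (-0.31, SE 0.11) and the receptor Neo1 (-0.23, SE 0.10) negative ones. Of 22 Eph receptors and ephrins the 2 paired, Epha3 and Epha6, were at -0.40 (SE 0.15) and -0.35 (SE 0.090).

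The slope on the oligodendrocyte score was positive and past the threshold in 3 of the 18, Plxnb3, Unc5b (0.69, SE 0.11, edgeR adjusted p = 0.00697) and Sema3b (1.5, SE 0.30, edgeR adjusted p = 0.0331), and 0 were past it with a negative slope, against 1.53% and 0.176% of all genes tested and 11% and 0.445% of paired genes. The largest negative slope was that of Plxnc1 (-0.32, SE 0.087, edgeR adjusted p = 0.148). Slit3 lay with the 15 genes that did not pass. With the score in the fit the Tg minus Wt log2 fold change was 0.05 (SE 0.41) for Sema3b, -0.17 (SE 0.16) for Unc5b and -0.01 (SE 0.13) for Plxnc1. These values too are descriptions, since the score markers came from a table ranked on this contrast. On the choroid plexus score Plxnb3 was the 1 of the 18 past the threshold. In all, 0.697% of genes tested and 6.3% of paired genes had a positive slope past it. The call for Plxnb3 held in only 3 of 12 fits that left out a mouse.

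**Figure D4:**
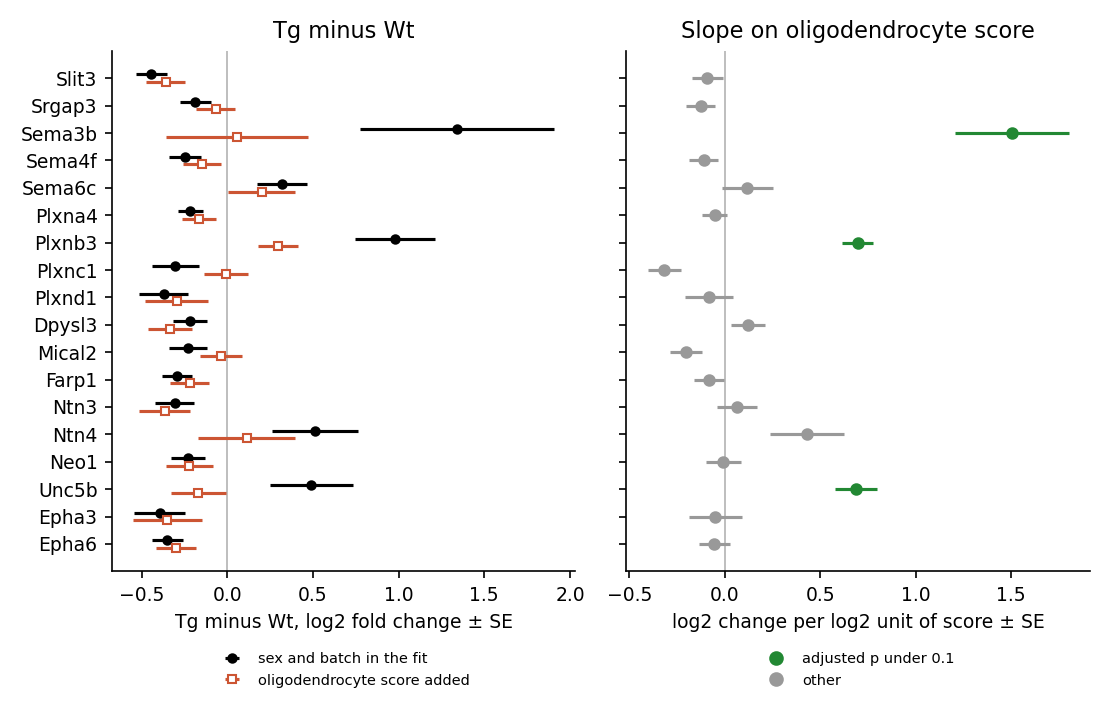
Left, Tg minus Wt log2 fold change ± SE of the 18 paired guidance genes with sex and batch in the fit (black circles) and with the oligodendrocyte score added (open squares). Right, slope on that score ± SE, in green where the adjusted p was under 0.1. Plxnb3 goes from 0.98 to 0.29 and Sema3b from 1.34 to 0.05 when the score is added, and Slit3 from -0.44 to -0.36.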

How the data were processed

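Ribosomal RNA was removed and total RNA was sequenced on an Ion Torrent S5XL. Per the labels and methods, the authors aligned reads to mm10 with STAR and Bowtie2, counted reads per gene, removed genes with low counts using edgeR and deposited raw counts. Versions and the strand setting are not given in the sources used here. The authors also deposited each library's size, its batch and its normalization factor, a ratio from edgeR, which was used in an alternative. Their differential expression table was used only for its mean normalized counts, from which names were recovered (relative difference under 1e-09, 1349 of 1684 means paired, largest difference 4.3e-10, and 0 pairs in 10 trials with shifted means). Its fold changes and p-values were not used.

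Between 15768135 and 20996174 reads per mouse were counted, and the common biological coefficient of variation was 0.201. No 2 libraries had counts alike within sampling noise. Counts were fitted with edgeR 4.0.16 in R 4.3.3 (quasi-likelihood test, TMM, sex + batch + condition, Benjamini-Hochberg adjusted p under 0.1), and filterByExpr removed 0 genes. DESeq2 1.42.0 was an alternative. Log2 CPM used a prior count of 2. Each of the 12 mice was left out in turn, and other scalings, filters and covariates were tried. The fits with no filter and with the deposited normalization factors gave the main values again but are counted among the alternatives. Permutations and figures used Python 3.11.15 with scipy 1.17.1. On simulated data with 15928 genes, edgeR recovered 96% of 100 genes changed by 1 log2 unit between Tg and Wt mice. It called 29 other genes (68 by DESeq2), which can include genes simulated with a score slope. It recovered 90% of 100 genes with an oligodendrocyte score slope of 0.7, with 13 genes without a slope called (37 by DESeq2). Changed genes had mean counts over 100, dispersions came from a fit with the score, and other genes except the markers had no score effect. The recovery for genotype may thus be higher than in the real data.

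Genes named were Slit3 and Plxnb3, App and Xist, the region markers, every paired gene of the guidance families, and for Slit3 and Plxnb3 the 5 paired genes with the highest and the 5 with the lowest correlation. Of these, 1 gene is not reported here. The pair, the gene lists and the tests were chosen with earlier results of these data known. Exon lengths and positions were from GENCODE M21 on GRCm38.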

Additional observations from a re-analysis of the deposited data

How the results depend on the processing

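Leaving out a mouse in turn, the Tg minus Wt log2 fold change ranged from -0.49 to -0.39 for Slit3 and from 0.86 to 1.14 for Plxnb3, and batch 1 alone gave -0.42 and 0.63. The slope of Plxnb3 on the oligodendrocyte score ranged from 0.64 to 0.74 and passed in 12 of 12 fits, and its r within Tg mice from 0.982 to 0.996. The choroid plexus slope of Plxnb3 ranged from 0.19 (without Tg mouse 93) to 0.33, and its r within Tg mice from 0.854 to 0.957, past the threshold in 1 of 7. Adding the oligodendrocyte score moved the Tg minus Wt value of Plxnb3 to 0.29, and to 0.28 without mouse 41. With the other score added, the oligodendrocyte slope of Plxnb3 was 0.78 and no longer passed, and its choroid plexus slope reversed to -0.037. In batch 1 alone and in Tg mice alone, which leave fewer mice, the choroid plexus slope was 0.31 and 0.38 and did not pass. DESeq2 called 56 genes for genotype, 175 for sex, 24 for batch, 17 for the interaction, 461 for the oligodendrocyte and 270 for the choroid plexus slope, against 1, 0, 0, 0, 271 and 115 by edgeR, and an adjusted p under 0.05 left 164 of the 271. For these shifts the cause was not tested, unless fewer mice or a stricter threshold made them. Of 333 values under alternatives, 305 were counted as unchanged. For a test this meant the same side of the threshold, and for a genotype value the same direction and a move within the spread between mice. A change of sign was not counted where neither value passed, as for the Plxnb3 interaction without Wt mouse 12 (-0.73 against 0.40). The choroid plexus gene count of 77 at an adjusted p under 0.05, against 115, was also counted as unchanged. So was the Tg minus Wt value of Plxnb3 with the choroid plexus score added, at 0.46 against 0.98 in the main fit. The slope, sex and interaction fits in batch 1 alone, the fits in Tg mice alone and that with the score but without mouse 41 were chosen after seeing the data. No paired analysis was possible because the mouse numbers are identities and the groups share none. Counts of the other Slit, Robo and semaphorin genes without a recovered name limit what can be said of the pathway.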
